A study of Mus musculus with 24 samples.

Results

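The members described here are the genes of mouse chromosome 19, taken in their order along the chromosome. A gene was a member when the reference gene table placed it on chromosome 19, each symbol was read from the 1 probe set with the largest SD over the 16 tumours, and 8 genes of the chromosome (Dntt, Blnk, Ms4a1, Pik3ap1, Nfkb2, Ifit1, Ifit2 and Ifit3) were left out. This gave 561 of the 17097 genes on the array, from 569 on the chromosome before the 8 were left out, and they were read against 15876 genes of the 18 other autosomes of the same array. The chromosome was picked because its genes stood high in tumours that carry both lesions of the study, so every comparison that holds those tumours is a description and carries no test. Of the members, 522 are protein-coding and 35 are long non-coding RNAs.

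The study profiled acute lymphoblastic leukaemia (ALL) of early mouse B cells on Affymetrix arrays, 16 tumours and 8 cell cultures in all. Blnk, also called BLNK, encodes the adaptor that passes signals from the pre-B-cell receptor, and LAP is an activating form of the transcription factor C/EBP beta, encoded by Cebpb. The 5 Blnk preB-ALL tumours arose in homozygous Blnk knockout mice without the transgene. The 3 LAP/Blnk preB-ALL tumours arose in Blnk knockout mice that also carried a Cebpb LAP transgene, and mice with the LAP transgene alone gave 4 LAP preB-ALL and 4 LAP B-ALL tumours. The 8 cultures were all of BKO408, a preB-ALL line that arose in Blnk knockout mice and was kept in 5 ng/ml IL-7 and 10% fetal bovine serum, 4 as they were and 4 transduced with a Cebpb LAP retrovirus. No agent was given to any sample. The promoter of the transgene, the strain, age and sex of the mice and the tissue sampled were not given in these sources. Nothing in the labels says that the samples of a group came from separate animals or cultures, so the p-values measure only the spread between these samples.

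A chromosome carries genes of unrelated function, and most of them are read independently of their neighbours. Genes of a whole chromosome or of a long stretch move together in RNA when the number of DNA copies changes, when chromatin is silenced over a long domain, or when neighbours share regulatory elements. Leukaemias often gain or lose whole chromosomes. DNA copy number was not measured here, and RNA values alone cannot show it.

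The values are log2 ratios of a gene's signal to that gene's own median over the 16 tumours or, for the cultures, over the 8 culture arrays, so a value of 1 is a doubling and no level of one gene can be set against that of another. In these bulk samples a smaller share of cells that express a gene and less RNA per cell cannot be told apart. The chromosome value of an array is the median over the 561 members minus the median over the genes of the other autosomes.

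The 4 genes used to mark the chromosome lie far apart along it. Their promoters are shown because the median shift over classes of members, as described further on, went with the CG content of promoters. Each line gives the 250 bases before the most upstream RefSeq start on GRCm38.p6, 5′ to 3′, with every CG dinucleotide, the site of DNA methylation in mammals, in capitals. The windows are chr19:17393793-17394042 on the plus strand for Rfk, chr19:34191979-34192228 on the plus strand for Stambpl1, chr19:53944056-53944305 on the plus strand for Shoc2 and chr19:58455399-58455648 on the minus strand for Gfra1.
Rfk: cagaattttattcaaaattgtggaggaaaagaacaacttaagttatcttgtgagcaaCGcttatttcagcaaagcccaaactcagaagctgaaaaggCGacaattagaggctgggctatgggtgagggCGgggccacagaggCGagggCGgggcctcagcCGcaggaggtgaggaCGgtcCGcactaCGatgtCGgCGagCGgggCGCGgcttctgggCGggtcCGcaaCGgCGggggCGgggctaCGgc
Stambpl1: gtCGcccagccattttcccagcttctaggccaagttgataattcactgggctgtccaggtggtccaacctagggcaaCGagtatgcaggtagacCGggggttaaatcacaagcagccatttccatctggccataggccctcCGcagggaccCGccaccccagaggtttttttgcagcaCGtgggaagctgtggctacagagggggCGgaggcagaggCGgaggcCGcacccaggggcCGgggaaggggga
Shoc2: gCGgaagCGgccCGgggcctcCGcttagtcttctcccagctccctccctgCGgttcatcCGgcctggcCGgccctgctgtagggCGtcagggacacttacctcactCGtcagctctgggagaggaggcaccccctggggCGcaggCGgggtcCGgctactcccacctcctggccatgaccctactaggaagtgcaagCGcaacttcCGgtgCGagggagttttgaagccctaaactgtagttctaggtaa
Gfra1: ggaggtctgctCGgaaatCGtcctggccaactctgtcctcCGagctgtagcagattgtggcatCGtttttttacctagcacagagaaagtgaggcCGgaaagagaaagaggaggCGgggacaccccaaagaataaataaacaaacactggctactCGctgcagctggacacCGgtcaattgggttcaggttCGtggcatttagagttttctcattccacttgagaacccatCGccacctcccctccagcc
The Rfk window holds 20 CG, a number reached by 28.2% of all autosomal promoter windows of the same length. Shoc2 has 15 CG, reached by 43.8%, and Stambpl1 and Gfra1 have 10 each, reached by 59.9%. CG reads the same on both strands, so a single count covers both. Among these 4 genes the difference between LAP/Blnk and Blnk tumours did not rise with the CG count. It was 0.98 for Rfk, 0.87 for Shoc2, 0.98 for Stambpl1 and 1.05 for Gfra1.

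The shift of the chromosome was present in each of the 3 LAP/Blnk tumours and in no other tumour to that extent. The chromosome value was 0.23, 0.22 and 0.37 in LAP/Blnk tumours 1 to 3. It was 0.06, -0.08, 0.06, 0.07 and -0.06 in Blnk tumours 1 to 5, and -0.08, 0.04, -0.06 and -0.03 in LAP preB-ALL tumours 1 to 4. The LAP B-ALL tumours stood at -0.07, -0.02, -0.06 and -0.13. The LAP/Blnk range thus lay above every other tumour, with a group mean of 0.27 ± 0.08 (SD, n = 3) against 0.01 ± 0.07 (SD, n = 5) in Blnk tumours, -0.03 ± 0.05 (SD, n = 4) in LAP preB-ALL and -0.07 ± 0.04 (SD, n = 4) in LAP B-ALL. Of the members, 71.8%, 72.4% and 75.2% stood above the median of the other autosomes in the 3 LAP/Blnk tumours.

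No other autosome reached such a value in any tumour. The 288 values of the 18 other autosomes ran from -0.05 to 0.12, with 20 beyond 0.05 in size and 2 beyond 0.1. Both of the latter were chromosome 12 in LAP/Blnk tumours 1 and 2, at 0.12 each. Chromosome 19 ranked first of the 19 autosomes in each LAP/Blnk tumour. It ranked 19th, the lowest, in 8 tumours: Blnk 2 and 5, LAP preB-ALL 1, 3 and 4, and LAP B-ALL 1, 3 and 4. Each gene is centred on its own median over the 16 tumours. A chromosome that is high in some tumours can therefore stand below 0 in others, and these ranks do not show reduced RNA.

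**Figure D1:**
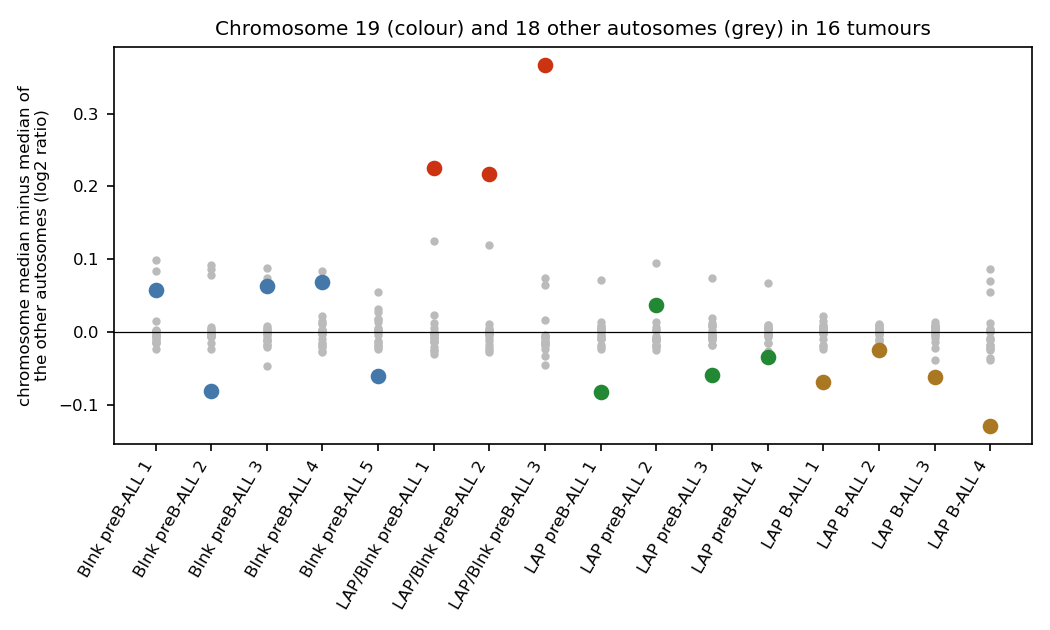
Median of each autosome minus the median of the other autosomes (log2 ratio, vertical axis) in each of the 16 tumours (horizontal axis), with chromosome 19 as a large coloured point and the 18 other autosomes as grey points. Chromosome 19 stands at 0.22 to 0.37 in the 3 LAP/Blnk tumours and is the lowest autosome in 8 of the other tumours. Genes are centred on their median over the 16 tumours, so low values are relative to the other tumours.

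Markers of other cell types varied among the tumours as well. The 5 measured erythroid markers had a median of 5.83 in LAP preB-ALL 4, of 5.32, 5.45 and 6.54 in LAP B-ALL 1 to 3 and of 1.57 in LAP B-ALL 4, against -0.87 to 0.48 in the other 11 tumours. The 7 measured B-lineage markers were low in the same 4 tumours with the highest erythroid medians, at -3.81, -1.87, -1.85 and -2.97. They were at -1.40 in LAP preB-ALL 2. Those samples thus carry the label of a B-lineage tumour with low B-lineage markers. The values keep no level, so they cannot show whether the label holds. In the LAP/Blnk tumours the B-lineage median was 0.37, 0.35 and 0.37, against -0.28 to 0.28 in the Blnk tumours and 0.54 in LAP B-ALL 4. Granulocyte markers were at 3.44 in Blnk 5 and 1.41 in LAP/Blnk 1, and at -1.03 to 0.31 in the other Blnk and LAP/Blnk tumours. They were at 2.20, 2.24, 2.15 and 3.02 in LAP B-ALL 1 to 4, at 3.39 in LAP preB-ALL 4 and at -0.87 to -0.42 in the other LAP preB-ALL tumours. The part of these cells in the chromosome value and in single genes was not tested.

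In each of the 4 marker genes the group mean was highest in LAP/Blnk, followed by Blnk, LAP B-ALL and LAP preB-ALL tumours. The chromosome value was instead lowest in LAP B-ALL. These genes were named to mark the chromosome, so they are no separate support. Rfk encodes riboflavin kinase, which makes the flavin cofactor FMN from vitamin B2. It stood at 1.28, 1.26 and 1.70 in the LAP/Blnk tumours and at 0.63, -0.08, 0.82, 0.76 and 0.04 in the Blnk tumours. All 3 LAP/Blnk values lay above all other 13 tumours, and the difference from Blnk tumours was 0.98 (SE 0.23).

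Shoc2 encodes a scaffold that helps RAS to activate RAF kinases. Its values were 1.01, 1.03 and 0.83 in the LAP/Blnk tumours and -0.16, -0.15, 0.20, 0.44 and 0.10 in the Blnk tumours. Over the tumours with the transgene alone it ran from -0.14 to 0.14. Its difference from Blnk tumours was 0.87 (SE 0.12), or 1.82-fold.

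Stambpl1, a deubiquitinase that trims Lys63-linked ubiquitin chains, stood at 1.24, 1.39 and 1.87 in the LAP/Blnk tumours and at -0.49 to 1.16 in the Blnk tumours. The tumours with the transgene alone split: LAP B-ALL 4 was at 0.99 and the other 7 at -4.09 to -1.09. Gfra1 encodes the GPI-anchored co-receptor for the growth factor GDNF. It stood at 1.47, 1.93 and 1.62 in the LAP/Blnk tumours, 0.10 to 1.19 in the Blnk tumours, -0.10 in LAP B-ALL 4 and -3.86 to -1.39 in the other 7. Both genes were higher in LAP/Blnk than in Blnk tumours by close to the same amount as Rfk, 0.98 (SE 0.82) for Stambpl1 and 1.05 (SE 0.76) for Gfra1, and their wide spread among tumours with the transgene alone enlarges the shared SE.

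**Figure D2:**
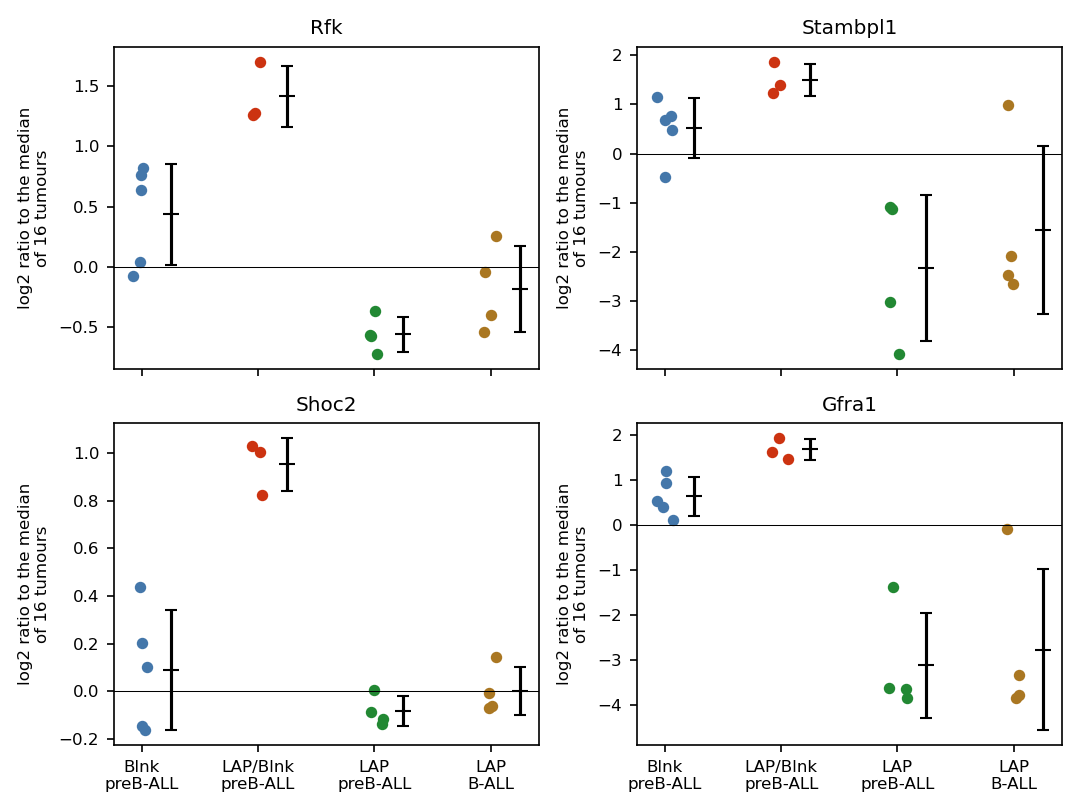
Log2 ratio to the median of the 16 tumours (vertical axes, which differ between panels) of Rfk, Stambpl1, Shoc2 and Gfra1 in the 4 tumour groups; each point is a tumour and the bars give the mean ± SD. The 3 LAP/Blnk tumours lie above every Blnk tumour in each panel.

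Over all members, the difference between LAP/Blnk and Blnk tumours had a median of 0.24, with quartiles of -0.02 and 0.63, against -0.03 over the genes of the other autosomes. It was positive for 409 of 561 members, or 72.9%, where 44.6% of all genes were positive. The 2 groups did not overlap for 154 members with LAP/Blnk higher (2.67% of all genes did so) and for 8 with LAP/Blnk lower (2.71% of all genes). Since the chromosome was chosen on this comparison, these counts describe the choice.

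The differences did not spread evenly around their median. Of the members, 245 (43.7%) lay between -0.25 and 0.25, 68 (12.1%) between 0.25 and 0.5 and 185 (33.0%) between 0.5 and 1. Only 25 members exceeded 1 and 38 lay below -0.25. On the other autosomes 75.3% of the genes lay between -0.25 and 0.25 and 2.02% between 0.5 and 1. A difference of 1 corresponds to a doubling, so most members above 0.25 lay below a doubling. The band from 0.25 to 0.5 is narrower than those on either side, so the counts do not show separate classes.

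The 125 members for which all 3 LAP/Blnk tumours lay above all other 13 tumours (1.23% of all genes did so) were found along the whole chromosome. Cut into 10 bins of 56 or 57 genes in order, the chromosome held 17, 24, 13, 10, 10, 10, 9, 9, 11 and 12 of them. The widest gap between the lowest LAP/Blnk tumour and the highest of the other 13 was 0.73 for Fam160b1, followed by 0.66 for Cep55, which encodes a protein of the midbody in cytokinesis, and 0.64 for Rfx3, a transcription factor of ciliary genes. The opposite order, all 3 LAP/Blnk tumours below the other 13, was found for 2 members (0.766% of all genes).

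The named members with the largest differences between groups that did not overlap were of unrelated function. Mirt1, a non-coding RNA, was at 2.24, 2.08 and 1.57 in the LAP/Blnk tumours and at -1.05 to 1.05 in the Blnk tumours, a difference of 2.04 (SE 0.50). Dock8, an exchange factor for CDC42 in lymphocytes, was higher by 1.80 (SE 0.72), from Blnk values of -2.46 to -0.01. Cyb561a3, a lysosomal ferric reductase, was higher by 1.49 (SE 0.32). Ccdc186 was higher by 1.39 (SE 0.26), Ccdc88b, a regulator of T-cell activation, by 1.37 (SE 0.42) and Fam160b1 by 1.25 (SE 0.27). For Rfx3 the difference was 1.19 (SE 0.52), for Fam111a, a protease at replication forks, 1.16 (SE 0.24), for Cep55 1.12 (SE 0.34), and for Sufu, the inhibitor of Hedgehog signalling, 1.08 (SE 0.30).

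Few named members were lower in all LAP/Blnk than in all Blnk tumours. Klf9, a zinc-finger repressor induced by glucocorticoids, was at -0.13, -0.24 and -0.09 in the LAP/Blnk tumours and at 0.88, 0.10, 0.37, 0.85 and 1.31 in the Blnk tumours, a difference of -0.86 (SE 0.50). Slc3a2, the heavy chain shared by several amino acid transporters, differed by -0.48 (SE 0.21), and its LAP/Blnk values of -0.63, -0.50 and -0.45 stood below all LAP preB-ALL tumours as well. The difference was -0.44 (SE 0.15) for the lipoprotein receptor gene Vldlr, -0.35 (SE 0.38) for the retinol carrier Rbp4 and -0.23 (SE 0.08) for the homeobox gene Vax1.

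**Figure D3:**
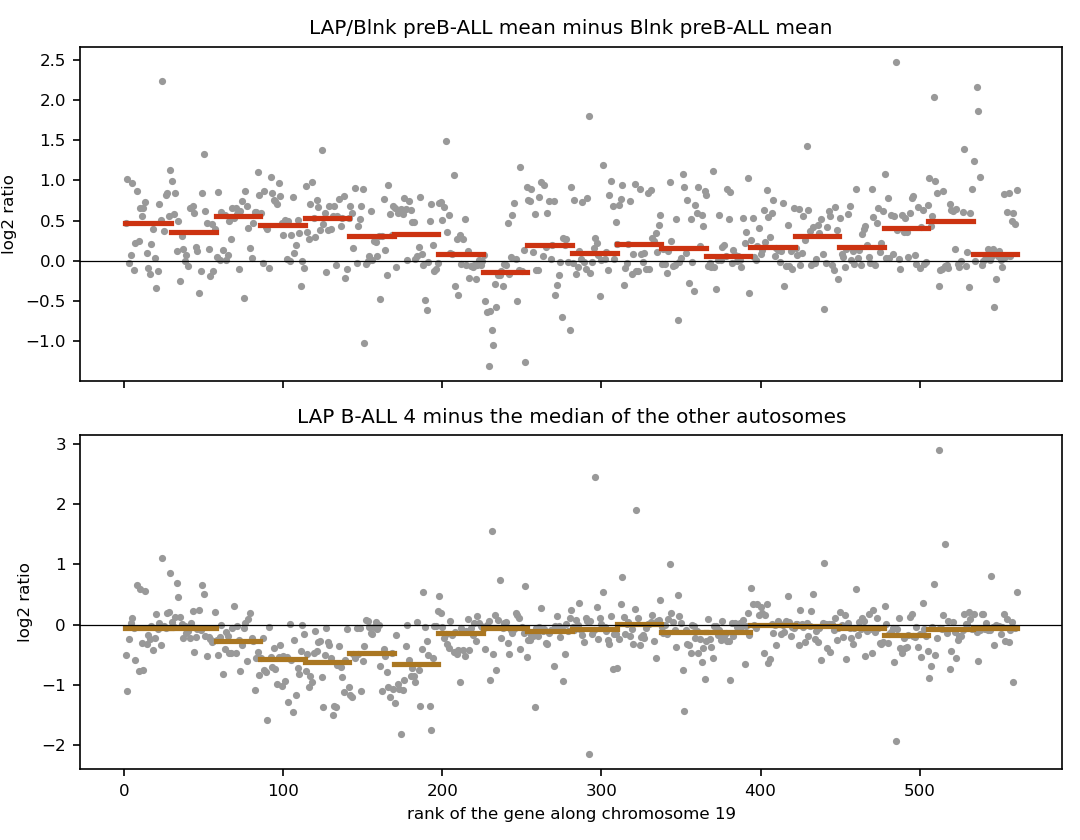
Difference between the LAP/Blnk and Blnk group means (log2 ratio, vertical axis) for each of the 561 members in their order along chromosome 19 (horizontal axis, gene rank). Of the members, 43.7% lie between -0.25 and 0.25 and 33.0% between 0.5 and 1, and the median is 0.24.

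By position, the medians of the LAP/Blnk tumours were above 0 in all 10 bins but far from equal. The difference from the Blnk mean was 0.35, 0.44 and 0.43 in the first 3 bins (Mrpl21 to Ttc9c) and 0.19 in the fourth. It was 0.01 in the fifth (4930526L06Rik to Smc5), 0.17, 0.15 and 0.18 in the next 3, 0.31 in the ninth (Sfxn3 to Xpnpep1) and 0.17 in the last. In bins of 28 or 29 genes the highest was the third of 20, Tmem151a to Pcnx3, at 0.51, and the lowest the ninth, 4930526L06Rik to Tle4, at -0.09.

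The low stretch overlaps a family of haematopoietic membrane genes. Ms4a1 belongs to this family and lies in the same place, but it was left out by the rule and is not counted. The 16 Ms4a members, which encode four-pass membrane proteins of B cells, mast cells and myeloid cells, lie at gene ranks 218 to 236. Their differences between LAP/Blnk and Blnk tumours had a median of -0.17, ran from -1.30 to 0.01, and were positive for 1 of 16. Likewise the 8 Cyp2c genes, which encode cytochrome P450 enzymes of liver, had a median of 0.02 with 5 positive, and the 7 Slc22a genes, which encode transporters of organic ions mainly of kidney and liver, had a median of 0.23 with 6 positive. The 16 members whose symbols begin with Mrp, Ndu, Pol, Psm, Eif, Snx or Vps, which encode parts of mitochondrial ribosomes, respiratory complex I, polymerases, the proteasome, translation initiation and membrane traffic and lie at ranks 1 to 447, were positive in all 16 cases, from 0.27 to 1.07. These families were formed after the values had been seen.

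Blnk itself lies on chromosome 19, after 395 members in gene order and between Zfp518a and Opalin. The Blnk and LAP/Blnk tumours share the knockout, and the labels name no knockout for the other tumours. The 40 members around Blnk had a median against the other autosomes of 0.17, 0.19 and 0.18 in the LAP/Blnk tumours. In the Blnk tumours this value was 0.15, -0.06, 0.03, 0.11 and -0.07, and in the 8 tumours with the transgene alone it ran from -0.12 to 0.03.

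**Figure D4:**
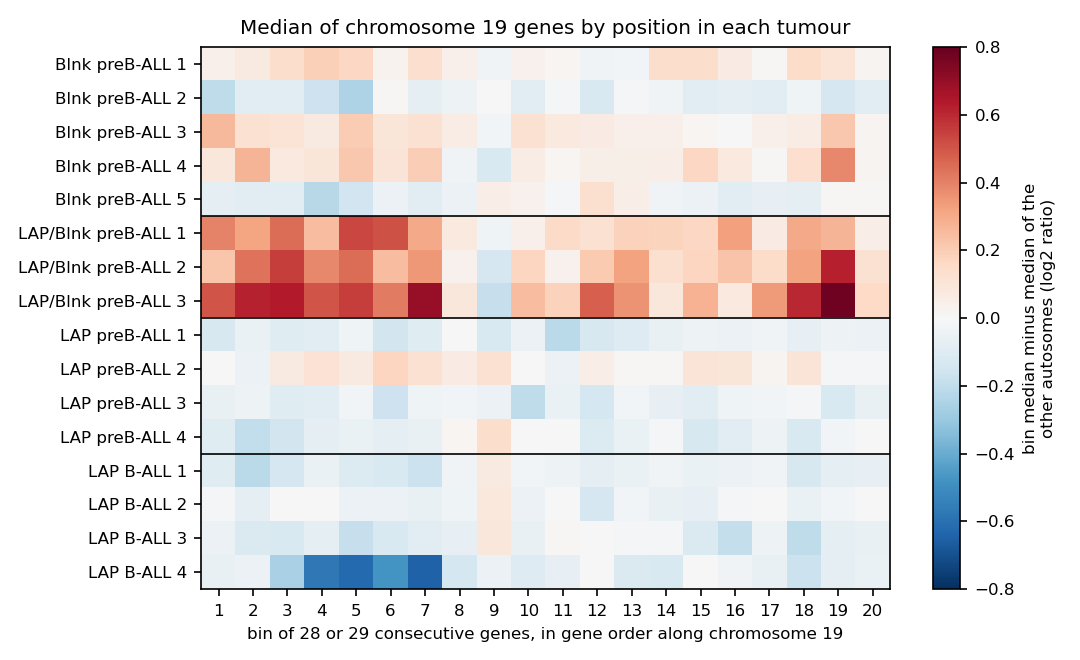
Median of the members minus the median of the other autosomes (log2 ratio) in 20 bins of 28 or 29 genes in order along chromosome 19 (horizontal axis), by tumour and group. The LAP/Blnk tumours stand above 0 in every bin but the ninth, where they are at -0.04, -0.13 and -0.18. LAP B-ALL 4 stands below the other tumours in bins 3 to 8.

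The median difference between LAP/Blnk and Blnk tumours was larger in members with more CG in the promoter. CG content was not used to choose the chromosome, but these differences were, so the classes are described without a test. Promoter windows were found for 468 of 561 members (83.4%), and the windows of 13080 autosomal genes were cut into 3 classes of near equal size, with up to 7, above 7 and up to 18, and above 18 CG. The 147 members with few CG had a median difference between LAP/Blnk and Blnk tumours of -0.0016, and 49.7% were positive. The 177 members of the middle class had a median of 0.44 with 80.8% positive, and the 144 members rich in CG had a median of 0.52 with 87.5% positive. The classes overlap: of the 144 CG-rich members, 43 (29.9%) lay between -0.25 and 0.25 and 3 lay below. Genes of the other autosomes had medians of -0.01, -0.04 and -0.04 in the same classes. Members with few CG varied least in the 13 other tumours, with a median SD of 0.21 against 0.40 for members rich in CG. The values keep no level, so genes silent in every tumour cannot be told from the rest. The part of either in the difference between classes was not tested.

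In the CG-rich class the chromosome value was 0.41, 0.42 and 0.82 in LAP/Blnk tumours 1 to 3. Tumour 3 was higher than the other two. The Blnk tumours split in the same class into 0.14, 0.19 and 0.26 for tumours 1, 3 and 4 and -0.14 and -0.09 for tumours 2 and 5. LAP preB-ALL stood at -0.15, 0.05, -0.09 and -0.10, and LAP B-ALL at -0.17, -0.08, -0.18 and -0.22. Among CG-rich genes the 17 other autosomes with windows gave 272 values from -0.10 to 0.34, with 5 beyond 0.3: chromosome 14 in Blnk 4 at 0.34, chromosome 12 in Blnk 1 at 0.33 and in LAP/Blnk 2 at 0.30, chromosome 16 in Blnk 1 at 0.33, and chromosome 11 in LAP B-ALL 4 at 0.32. The 3 chromosome 19 values of the LAP/Blnk tumours lay above all of these.

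Within the CG-rich class the fifth bin was not the lowest. Over all members it stood at 0.01, 0.0021 and 0.02 in LAP/Blnk tumours 1 to 3, and at 0.58, 0.62 and 0.93 over its 13 CG-rich members. The fourth bin was higher, at 0.71, 0.70 and 0.94 over 9 such members, and the sixth lower, at 0.19, 0.09 and 0.67 over 21. Every bin was above 0 in each LAP/Blnk tumour over these genes.

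**Figure D5:**
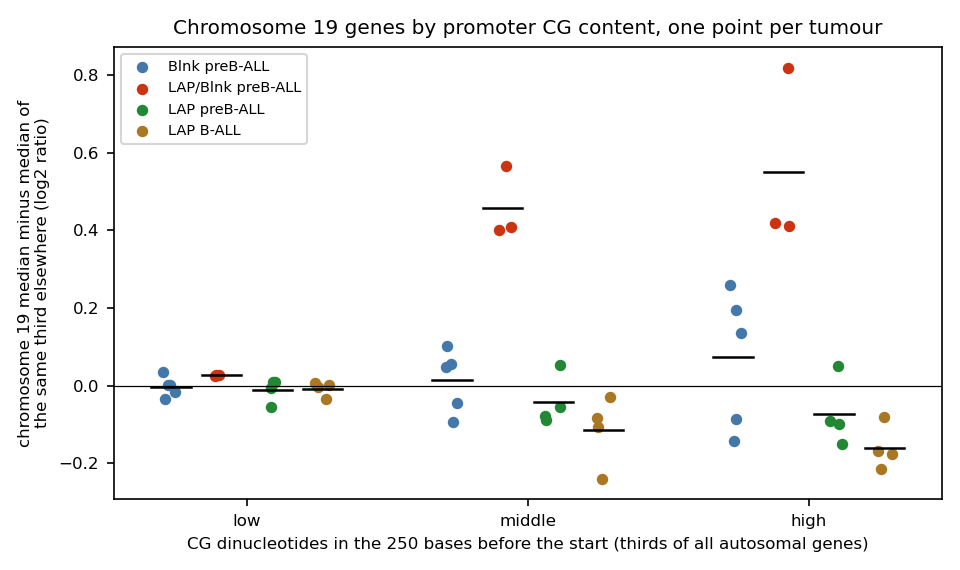
Median of chromosome 19 members minus the median of genes of the same CG class on the other autosomes (log2 ratio, vertical axis) in each tumour, for promoters with few, intermediate and many CG dinucleotides (horizontal axis); points are tumours and bars are group means. The LAP/Blnk tumours stand near 0.03 in the low class, where Blnk 3 is above them at 0.034, and at 0.41 to 0.82 in the high class.

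The share of positive differences varied between functional lists, beside 72.9% of all members and 44.6% of all genes. The lists were chosen with earlier results of these data known, and no difference between lists was tested. Of the 19 members on a list of cell division and DNA replication genes, all 19 had positive differences between LAP/Blnk and Blnk tumours, with a median of 0.84. The groups did not overlap for 14, all with LAP/Blnk higher, as for 27.5% of all members and 2.67% of all genes. Kif20b, a mitotic kinesin, was at 1.72, 1.39 and 2.07 in the LAP/Blnk tumours and at 0.12 to 1.28 in the Blnk tumours. Smc5, of the SMC5/6 complex of DNA repair, differed by 0.92 (SE 0.25) and Uhrf2, which binds methylated DNA, by 0.90 (SE 0.38). Smc3, the cohesin subunit, was at 0.99, 0.92 and 1.08 against -0.19 to 0.46.

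All 18 members of the signalling list (RAS, PI3K, JAK and NF-kB pathways) had positive differences too, with a median of 0.72, and 9 did not overlap, against the same 27.5% of members and 2.67% of genes. Sipa1, which inactivates the small GTPase RAP1, differed by 1.11 (SE 0.32). Jak2, the kinase of cytokine receptors, was at 0.40, 0.26 and 0.62 in the LAP/Blnk tumours and at -0.89 to 0.35 in the Blnk tumours. Rela, the p65 subunit of NF-kB, was at 0.42, 0.43 and 1.07 against -0.33 to 0.28.

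Genes of translation, RNA processing and protein turnover had 21 of 22 positive differences and a median of 0.56, transcription and chromatin regulators 20 of 24 and 0.35, and genes of metabolism 20 of 26 and 0.43. Among them Men1, the menin tumour suppressor that binds MLL complexes, differed by 0.97 (SE 0.22), Cpt1a, which admits fatty acids to mitochondria, by 1.02 (SE 0.42), the nuclear non-coding RNA Malat1 by 1.04 (SE 0.36) and Syvn1, the ubiquitin ligase of endoplasmic reticulum quality control, by 0.81 (SE 0.24).

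Of 27 surface and immune genes, 9 had positive differences, against 72.9% of all members and 44.6% of all genes. Their median was -0.13. The groups did not overlap for 3, all higher, where 27.5% of all members and 2.67% of all genes did so. The largest differences of the list ran both ways, with 1.80 for Dock8 and 1.37 for Ccdc88b, already named above, and -1.30 for Ms4a4b and -1.26 for Lpxn, a focal adhesion adaptor. Ms4a4b, a membrane protein of T cells, ran from -3.54 to 1.87 among the Blnk tumours alone. Cd274, which encodes PD-L1, stood at -0.05, -0.49 and -0.62 in the LAP/Blnk tumours and at -0.38 to 0.21 in the Blnk tumours. Fas, the death receptor, was at -0.02, -0.20 and -0.35 against -1.08 to 0.38. The T-cell marker median ran from -0.78 to -0.23 over LAP/Blnk and from -0.53 to 0.93 over Blnk tumours, and the monocyte marker median from -0.77 to -0.51 and from -0.78 to 0.54. Their part in these values was not tested.

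Set against the tumours with the transgene alone, the LAP/Blnk tumours showed the same shift with larger single differences. These comparisons share the 3 LAP/Blnk tumours with the one above, so they are no separate support. The median over members was 0.31 against LAP preB-ALL and 0.30 against LAP B-ALL. The groups did not overlap for 225 members with LAP/Blnk higher than LAP preB-ALL (9.12% of all genes) and 21 lower (8.21%).

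The limma fit also passes members in the comparisons with LAP/Blnk tumours, but the chromosome was picked on those tumours, so these counts only describe the choice and test nothing. At an adjusted p under 0.05, 1 member passed against Blnk tumours (0.0175% of all genes), namely Shoc2. Against LAP preB-ALL 119 passed as higher (1.59% of all genes) and 1 as lower (0.784%), and against LAP B-ALL 151 as higher (2.19%) and 1 as lower (1.32%). Leaving out LAP/Blnk 3 left 28 in all against LAP preB-ALL (0.503% of all genes) and 82 against LAP B-ALL (1.44%). In the main fit 2.37% and 3.51% of all genes passed in these comparisons, so the share fell over all genes as well. With only the LAP/Blnk and LAP preB-ALL groups in the fit 18 members passed, a count given without its share of all genes.

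The 10 highest differences from LAP preB-ALL were in genes whose SD within that group ran from 0.40 for Mirt1 to 2.04 for Rasgrp2. Gfra1 differed from LAP preB-ALL by 4.80 (SE 0.79) and Stambpl1 by 3.84 (SE 0.86). Rasgrp2, an activator of RAP1 in blood cells, was at 1.31, 1.01 and 1.57 in the LAP/Blnk tumours and at -0.07, -3.72, 0.15 and -3.21 in LAP preB-ALL, a difference of 3.01 (SE 0.89). Its 2 low LAP preB-ALL tumours are those with low B-lineage markers. The differences were 2.88 (SE 1.15) for the calcium-binding protein gene Cabp4, 2.88 (SE 0.65) for Carns1, which makes carnosine, 2.5 (SE 0.56) for Add3, of the spectrin cytoskeleton, and 2.46 (SE 0.67) for the Wnt effector Tcf7l2. Gpam, the first enzyme of triglyceride synthesis, differed by 2.41 (SE 0.77), Anxa1, the annexin of inflammation control, by 2.40 (SE 0.77) and Mirt1 by 2.30 (SE 0.53).

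Lower in LAP/Blnk than in LAP preB-ALL tumours were Ms4a4b, by -3.14 (SE 1.30), Ms4a6b, by -1.82 (SE 0.73), and Ms4a6c, by -1.53 (SE 0.64). Shtn1, a protein of axon outgrowth, differed by -1.63 (SE 0.74) and Cd5, a surface inhibitor of antigen-receptor signals on T cells and a subset of B cells, by -1.57 (SE 0.81). Cd5 was at 3.30 in LAP preB-ALL 4 and at -0.01 to 0.77 in the other LAP preB-ALL tumours. Against LAP B-ALL, Kif20b differed by 2.91 (SE 0.26), Rfx3 by 2.66 (SE 0.55) and Atrnl1 by 2.65 (SE 0.61), and the aldehyde dehydrogenase gene Aldh1a7 by -1.52 (SE 0.38).

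The remaining comparisons hold no LAP/Blnk tumour and were tested. Between LAP preB-ALL and Blnk tumours no member passed an adjusted p of 0.05 in the limma fit (0.0585% of all genes did). At an unadjusted p under 0.05, 13 members were higher (5.47% of all genes) and 88 lower (7.64%) in LAP preB-ALL, and the median difference was -0.07. Gfra1 differed by -3.76 (SE 0.69) with an adjusted p of 0.0662, and Rfk by -0.996 (SE 0.21) with 0.0913. When LAP B-ALL 4 was left out of the shared estimate of the spread, a choice made after seeing the data, 6 members (1.07%) passed. In the same fit 105 of all genes (0.614%) passed, up from 10. The members had adjusted p of 0.00496 for Gfra1, 0.0393 for Stambpl1 and 0.0437 for Rfk.

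In LAP B-ALL against Blnk tumours 18 members fell and 1 rose at an adjusted p under 0.05 (0.953% and 0.48% of all genes in the limma fit). Kif20b was at -1.24, -0.87, -1.15 and -1.46 in LAP B-ALL and at 0.12 to 1.28 in the Blnk tumours, so the groups did not overlap, and it fell by 2.00 (SE 0.23, adjusted p = 0.0015). Gfra1 fell by 3.40 (SE 0.69, adjusted p = 0.0315), with LAP B-ALL 4 at -0.10 against -3.86 to -3.34 in the other 3. Vps13a, a lipid carrier between membranes, fell by 1.39 (SE 0.27, adjusted p = 0.0262), Ccdc86, a nucleolar protein, by 1.13 (SE 0.20, adjusted p = 0.0204) and Men1 by 1.10 (SE 0.21, adjusted p = 0.0243). The palmitoyltransferase gene Zdhhc24 rose by 0.84 (SE 0.17, adjusted p = 0.0309).

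These calls depended on single tumours. Without LAP B-ALL 2 only 1 member was called (0.178% of members, and 0.328% of all genes in that fit). Without LAP B-ALL 1 or 3 only 2 were called (0.357%, against 0.281% and 0.269% of all genes). Without Blnk 1 or 4 only 3 were called (0.535%, against 0.509% and 0.468%). Without Blnk 2 the number was 9 (1.6%, against 0.485%) and without Blnk 3 it was 6 (1.07%, against 0.684%). Without Blnk 5 it rose to 46 (8.2% of members, and 2.7% of all genes in that fit) and without LAP B-ALL 4 to 93, of which 66 lower and 27 higher (16.6% of members and 10.7% of all genes). Gfra1 and Vps13a lost the call without each of Blnk 1 to 4 and LAP B-ALL 1 to 3, with adjusted p of 0.0583 to 0.120 for Gfra1. Zdhhc24 lost it without Blnk 1, 2 or 3 or LAP B-ALL 1, 2 or 3, Ccdc86 without Blnk 4 or LAP B-ALL 1, 2 or 3, and Men1 without Blnk 1, 3 or 4 or LAP B-ALL 1, 2 or 3. Kif20b kept the call without each tumour, and it missed the threshold with the probe set first by name, at an adjusted p of 0.0682. LAP B-ALL tumours 1 to 3 are those with high erythroid and low B-lineage markers, and their T-cell medians of 1.45, 0.90 and 1.75 and monocyte medians of 1.09, 0.68 and 1.56 compare with -0.53 to 0.93 and -0.78 to 0.54 in the Blnk tumours. Granulocyte medians were high in all 4 LAP B-ALL tumours. The part of these markers in the calls was not tested.

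Between LAP B-ALL and LAP preB-ALL tumours no gene passed (0.0% of all genes in the limma fit). At an unadjusted p under 0.05, 17 members were higher (5.46% of all genes) and 35 lower (5.56%). Without LAP preB-ALL 4, 3 members passed in each direction, 1.07% of the members in all, where 1.7% of all genes passed.

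LAP B-ALL 4 stood apart by a stretch of low genes near the start of the chromosome. The stretch was chosen after seeing the data and runs over 112 genes in order, from Map3k11 to Ppp1r32, the fourth to seventh of 20 bins, and it carries no test. The median in it was -0.55 in LAP B-ALL 4 and -0.07 over the other 449 members of the same tumour. In the other 15 tumours the median of the stretch ran from -0.13 to 0.53. Of the 112 genes, 105 (93.8%) were below 0 in LAP B-ALL 4 and 64 were below -0.5, against 1 to 16 below -0.5 in each other tumour.

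The edges of the stretch were within a bin of 28 genes. The third to eighth of 20 bins had medians against the other autosomes of -0.26, -0.57, -0.62, -0.48, -0.65 and -0.14 in LAP B-ALL 4. This tumour was the lowest of 16 for 58 of the 112 genes (51.8%), for 12.03% of the other members and for 9.23% of the genes of the other autosomes (9.52% of all genes). The stretch includes Fen1, the flap endonuclease of DNA replication, at -1.77 against -0.36 to 0.10 in LAP B-ALL 1 to 3, Vegfb, a growth factor of the VEGF family, at -1.38 against -0.23 to -0.04, and Cdca5, which encodes sororin of the cohesin complex, at -1.46 against -0.34 to -0.17. It also holds genes for which LAP B-ALL 1 to 3 were high, such as Plaat3, a phospholipase, at -0.37 against 2.35 to 3.38 and Ehd1, of endosome recycling, at -1.06 against 1.11 to 1.89. In the LAP/Blnk tumours the same stretch had medians of 0.43, 0.38 and 0.53, above the 0.18, 0.17 and 0.28 of the other members.

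In BKO408 cultures the chromosome value was near 0 with and without LAP. Each gene is centred on its own median over the 8 cultures, so this value cannot show the level of the chromosome in the line. It can show only a difference between cultures with and without LAP. The chromosome value was 0.0038 ± 0.0046 (SD, n = 4) without and -0.0024 ± 0.0021 (SD, n = 4) with the LAP retrovirus. Of the members, 58 rose (10.6% of all genes in the limma fit) and 83 fell (11.8%). These shares, 10.3% and 14.8% of the members, are near those of all genes, and the median difference was -0.02 against -0.01 over the other autosomes.

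Single members did change in the cultures. Gfra1 was at 0.25 to 0.31 without and -0.27 to -0.25 with LAP, without overlap, and fell by 0.53 (SE 0.03, adjusted p = 8.2e-07). Stambpl1 fell by 0.32 (SE 0.02, adjusted p = 1.64e-05), while Rfk and Shoc2 differed by 0.01 each, with adjusted p of 0.929 and 0.908. Ifit1bl1, a gene of the interferon-induced IFIT family, fell by 0.98 (SE 0.03, adjusted p = 3.59e-08). Fads2, a desaturase of polyunsaturated fatty acids, fell by 0.56 (SE 0.03, adjusted p = 7.24e-07), Gpam by 0.54 (SE 0.02, adjusted p = 4.96e-07) and Rnls, which encodes renalase, by 0.54 (SE 0.07, adjusted p = 0.000504).

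Among the rises, Sfxn2, a mitochondrial carrier, was at -0.93 to -0.12 without and 0.12 to 0.30 with LAP and rose by 0.62 (SE 0.15, adjusted p = 0.0155). The organic anion transporter gene Slc22a8 rose by 0.58 (SE 0.09, adjusted p = 0.00169), Dclre1a, a nuclease of crosslink repair, by 0.51 (SE 0.07, adjusted p = 0.000479) and Fgfbp3, which binds fibroblast growth factors, by 0.40 (SE 0.04, adjusted p = 0.00014). Ahnak, a giant scaffold protein, rose by 0.59 (SE 0.07, adjusted p = 0.000247) on the probe set used here, but its probe sets disagreed: the one first by name gave -0.38 (adjusted p = 0.000751) and the mean of all of them 0.04 (adjusted p = 0.395). On the cell division list no member rose and 7 of 19 fell, with a median of -0.07, and on the signalling list 3 of 18 rose and 5 fell, where 10.6% of all genes rose and 11.8% fell.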

How the data were processed

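RNA of 24 samples, 16 tumours and 8 BKO408 cultures, was labelled from 100 ng total RNA and hybridised to Affymetrix arrays, per the labels' protocols. The submitters' processing notes name MAS5 and nothing else; its version, the annotation build and any later normalisation are not stated in these sources. The deposited values behave as log2 ratios: each probe set's median is 0 over the 16 tumours and, separately, over the 8 cultures, and the log base, taken as 2, is unstated. They keep no level and no depth, and the number of arrays limits the precision.

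Of 45141 probe sets, 28898 had 1 gene symbol, 551 several and 15692 none in the platform annotation, and 28838 matched the RefSeq gene table (GRCm38.p6). This gave 17097 genes, 17054 with a chromosome. Of the members, 250 had more than 1 probe set. Overlapping and antisense transcripts were not separated.

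Tests were limma 3.58.1 (R 4.3.3) over all genes, the 16 tumours in one fit and the 8 cultures in another, two-sided, with Benjamini-Hochberg adjustment over all 17097 genes and a threshold of 0.05. The fit was tested on simulated data. Named genes are Shoc2, Gfra1, Stambpl1 and Rfk, the 10 highest and 5 lowest differences among named members without overlap for LAP/Blnk against Blnk and against LAP preB-ALL, the 5 largest called rises and falls without overlap in other comparisons, and up to 4 members per functional list by size. List members shown beyond that rule (Smc3, Jak2, Rela, Cd274, Fas) and the genes of the LAP B-ALL 4 stretch were chosen after their values were seen. The members and lists were chosen with earlier results of these data known. Replicate numbers do not pair the samples. Alternatives changed the probe set, normalisation, variance model, samples, filter and statistic.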

Additional observations from a re-analysis of the deposited data

Results flagged for a closer look

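Of 265 groups of 4 or 5 samples, 25 held a sample whose gap to the nearest other was large for the range of its group; chance alone gives about 1 in 20 groups such a sample. LAP B-ALL 4 accounts for most of those among tumours. In this tumour the median of chromosome 19 genes was -0.296 in the fourth, -0.0817 in the fifth and -0.119 in the seventh of 10 bins of gene order, below the other LAP B-ALL tumours. Single members set it apart from them as well, with Stambpl1 at 0.991, Gfra1 at -0.103, Carns1 at 0.832, Gpam at 1.31 and Sufu at 0.282 above the others, and Dock8 at -2.16 and Dclre1a at -0.214 below them. It is also the LAP B-ALL tumour with the lowest erythroid and highest B-lineage marker medians, and the part of this in the values was not tested.

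Among the other LAP B-ALL tumours, LAP B-ALL 2 stood apart at -0.00585 in the last bin and at 2.0 for Rbp4. LAP preB-ALL 2 stood above its group at 0.0855 and 0.0993 in bins 2 and 3 and at 1.94 for Dock8. LAP preB-ALL 1 stood above its group for Gfra1 at -1.39, and LAP preB-ALL 4 below its group for Cep55 at -1.07. Blnk preB-ALL 5 stood at 0.76 for Rbp4.

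In the cultures such samples differed by small amounts. BKO408 LAP 3 had a chromosome value of 0.000718. BKO408 2 stood at -0.0975 for Rfk and -0.0467 for Ms4a4b, and BKO408 4 at 0.275 for Gpam. BKO408 LAP 2 stood at 0.345 for Tcf7l2 and 0.0487 for Cd5, and BKO408 LAP 1 at -0.175 for Atrnl1.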

How the results depend on the processing

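The group mean of the chromosome 19 value stayed higher in LAP/Blnk tumours than in each other group under every alternative run. Single tumours overlapped in the less variable members, with LAP preB-ALL 2 at 0.028 and LAP/Blnk tumours 1 to 3 at 0.015, 0.011 and 0.021. LAP/Blnk minus Blnk moved from 0.26 to 0.37 with means in place of medians, 0.57 in the 374 more variable and 0.0167 in the 187 less variable members, and 0.48 in CG-rich promoters, an alternative chosen after seeing the data. The same settings gave 0.48, 0.70, 0.016 and 0.62 against LAP preB-ALL, with 0.37 after quantile normalisation, and 0.51, 0.80, 0.0228 and 0.71 against LAP B-ALL. The split by variability uses the SD over all 16 tumours, which includes the shift itself.

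Counts of called members moved most; those with LAP/Blnk tumours describe the choice of the chromosome and test nothing. LAP/Blnk against Blnk called 1 member (0.0175% of all genes). It called 0 with the mean of all probe sets, with a variance trend, with only the groups compared and with more variable genes only. After quantile normalisation it called 19 members, where 29 of all genes were called. Without LAP B-ALL 4 in the shared fit it called 2 (0.0292% of all genes). With single replicates left out it called 0 to 2 (0.0117% to 0.076% of all genes). LAP/Blnk against LAP preB-ALL called 120 members (2.37% of all genes), and 18 with only the groups compared. With single replicates left out it called 28 (0.503% of all genes) to 105 (1.78%). LAP/Blnk against LAP B-ALL called 152, and 82 to 197 with single replicates left out, the lowest without LAP/Blnk 3. LAP preB-ALL against Blnk called 0 members (0.0585% of all genes), but 1 with the probe set first by name. It called 1 without Blnk 5 (0.0409% of all genes) and 6 without LAP B-ALL 4 (0.614%). LAP B-ALL against Blnk called 19 (1.43% of all genes). It called 9 with the mean of all probe sets, 8 with the probe set first by name and 8 after quantile normalisation. With single replicates left out it called 1 (0.178% of members, 0.328% of all genes) to 93 (16.6% and 10.7%). LAP B-ALL against LAP preB-ALL called 0 (0.0% of all genes), and 6 without LAP preB-ALL 4 (1.7% of all genes). The cultures called 141 (22.4% of all genes), and 122 to 151 over their alternatives. Counts without a share of all genes beside them are not read as results about the members.

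Replicate numbers are shared between groups, but same-numbered samples did not deviate together in every pair (correlations of -0.64 to 0.383), so they are not treated as pairs. With the replicate number as a block, 0 members were called in LAP/Blnk against Blnk and against LAP preB-ALL, 0 in LAP B-ALL against Blnk, 226 in LAP/Blnk against LAP B-ALL, and 135 in the cultures. The same samples without the block, an alternative chosen after seeing the data, called 0 in LAP/Blnk against Blnk, 10 against LAP preB-ALL and 250 against LAP B-ALL, and 35 in LAP B-ALL against Blnk. These counts with and without the block stand without their shares of all genes, so they are not read as results about the members.

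Of single genes, direction reversed for Ahnak in the cultures with the probe set first by name (-0.3846). Near 0 in the cultures, with single replicates left out, Rfk ran from -0.02156 to 0.01639 and turned negative without BKO408 2 (-0.02156) or BKO408 LAP 4 (-0.003488). Shoc2 ran from -0.01963 to 0.07076 and turned negative without BKO408 2 (-0.01963), BKO408 3 (-0.01151) or BKO408 LAP 4 (-0.002112), and with the mean of all probe sets (-0.006826). In LAP B-ALL against Blnk, with single replicates left out, Shoc2 ran from -0.1487 to 0.001388, the latter without Blnk 4. In LAP B-ALL against LAP preB-ALL, likewise, Stambpl1 ran from -0.07109 to 1.194 and Gfra1 from -0.537 to 0.9328, both lowest without LAP B-ALL 4. Of the other values of single genes, 126 lost and 17 gained a call under some alternative, and 1135 kept direction and side. The causes were not tested.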
